A study of Mus musculus with 3 samples.

Results

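The genes described here are 7 enzymes that make or destroy prostaglandins: the phospholipase gene Pla2g4a, the cyclooxygenase genes Ptgs1 and Ptgs2, the terminal synthase genes Ptges, Ptgis and Ptgds, and the breakdown gene Hpgd. They are 7 of the 27998 genes listed in each of 3 single-cell RNA libraries. They were chosen by pathway with their measured CPM and shares of cells per library and cell class already known, so those values describe the members and support no claim about the group. The libraries were made from lung cells of MMTV-HER2/Neu mice, strain FvB, in which a mouse mammary tumour virus promoter, active in mammary epithelium, drives the HER2/Neu oncogene in every group, controls included. What is called here the negative library holds CD45- HER2- cells and the early library CD45- HER2+ cells, both from mice of 14 to 18 weeks without a palpable tumour. The late library holds CD45- HER2+ cells from mice older than 20 weeks that carried primary tumours. The submitters label the HER2+ sorts as breast cancer cells and the HER2- sort as non-cancer lung cells. Each group is 1 library, the number of mice behind it is not given in the sources used here, and no test between groups was possible. Stage, age, animal and library cannot be told apart between the early and late groups, nor sort and library between the negative and early groups.

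Prostaglandins are lipid signals made on demand from arachidonic acid, which cytosolic phospholipase A2 releases from membranes. A cyclooxygenase turns it into prostaglandin H2, and a terminal synthase then sets the product: prostaglandin E2, prostacyclin, prostaglandin D2 or thromboxane. The lung is known as a major site of prostaglandin removal, where the transporter encoded by Slco2a1 carries the lipids into cells and the dehydrogenase encoded by Hpgd inactivates them.

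Barcodes were kept at 1000 or more unique molecular identifiers (UMIs, 1 per captured transcript molecule) and under 25% mitochondrial UMIs, which left 6416 negative, 7622 early and 6012 late cells. Their median depths differed, at 3166, 5318.5 and 8075 UMIs. Each cell was placed in the first class whose markers it met: mammary (Csn3 and Wfdc18), alveolar type 2 or AT2 (Sftpc), airway (Cyp2f2 and Foxj1), endothelial (Cldn5 and Cdh5), mural (Higd1b, Cox4i2 and Myh11) or fibroblast (Pdgfra and Col1a2). In every class of at least 50 cells, 7 of its 7 markers were highest in that class in each library. The negative library was mostly endothelial, with 5186 endothelial, 684 fibroblast, 221 mural and 46 AT2 cells. The early library held 3939 AT2, 1558 endothelial, 1352 mural, 268 fibroblast and 155 airway cells, and the late one 3996, 486, 931, 71 and 196. Against the label of the HER2+ sorts, mammary cells were 161 of 6012 in the late library and 0 of 7622 in the early one, which allows a share of up to 0.0394%. Cells that met the markers of more than 1 class made up 16.9% of early and 14.6% of late AT2 cells and 46.4% to 55.2% of mural cells. Kept barcodes shared between libraries numbered 10 to 18 per pair.

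Levels are CPM, a gene's UMIs scaled to a common total of all UMIs, summed over a library's cells of a class, with exact 95% Poisson intervals that cover counting error only. The libraries count 3′ ends and the values are not scaled by gene length, so a gene is compared between cell classes and libraries, not with another gene. A member is called different between 2 sums at a 1.5-fold or larger ratio with at least 10 UMIs over the pair.

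The promoter sequences of the 2 cyclooxygenase genes and of Hpgd are shown because much of what follows is about where these 3 genes were detected. RefSeq's table on GRCm38.p6 (250 bases before to 50 after a gene's start) held 6 of the 7 members, all but Ptgis. Ptgs2 lies on chromosome 1 at 150100031 to 150108227 (GRCm38, plus strand), Ptgs1 on chromosome 2 at 36230426 to 36252272 (plus strand) and Hpgd on chromosome 8 at 56294585 to 56321043 (plus strand). Capitals mark motifs that a search of both strands found: the C/EBP-type palindrome TTGCGCAA, the cyclic-AMP half-site TGACG (here as CGTCA), the E-box CACGTG, which overlaps the half-site in Ptgs2, and the TATA box TATAAA.
Ptgs2, chr1:150099931-150100030, plus strand, the 100 bases before the start: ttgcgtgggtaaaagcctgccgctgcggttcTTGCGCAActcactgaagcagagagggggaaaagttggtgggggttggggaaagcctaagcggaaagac
Ptgs2, chr1:150100031-150100060, plus strand, the first 30 transcribed bases: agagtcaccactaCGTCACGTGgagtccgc
Ptgs1, chr2:36230326-36230425, plus strand, the 100 bases before the start: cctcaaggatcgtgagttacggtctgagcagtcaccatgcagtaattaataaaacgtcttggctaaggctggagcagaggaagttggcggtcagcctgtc
Hpgd, chr8:56294552-56294581, plus strand, the 30 bases after the table's start: gggcTATAAAagctgctgcggcgtccagac
The palindrome, whose first base lies 69 bases before the Ptgs2 start, was in 54 of 32851 promoter windows of 250 bases (0.164%). In windows of 300 bases the half-site was in 20.8%, the E-box in 7.15% and TATAAA in 13.6%. None of these letters was in the Ptgs1 stretch. The table's Hpgd start differs from the gene start given above, and the printed Hpgd stretch lies wholly before the latter. A kappaB-type motif, GGGNNTTCC, was in 5.82% of the 300-base windows and in none of a member's. Other forms of that motif and bases outside the windows were not searched, so the absence of a kappaB site cannot be read from this. A match is a description of the letters only. The Ptgs2 bases called transcribed are those after the annotated start, and where transcription begins in these cells was not tested.

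Pla2g4a, which encodes the cytosolic phospholipase that releases arachidonic acid (chromosome 1, 149829618 to 149961290, minus strand), was at its highest among airway cells and fibroblasts in the early and late libraries. Airway cells held 52.9 CPM (95% interval 41.5 to 66.6) in the early and 64.4 CPM (54.2 to 75.9) in the late library. Fibroblasts held 13.5, 34.6 and 54.3 CPM in the negative, early and late libraries. Endothelial cells stood at 8.63, 12.2 and 12.6 CPM in the same order, AT2 cells at 8.63 CPM early and 8.12 CPM late, and mural cells at 3.69 to 5.16 CPM. The fibroblast intervals of the negative (9.91 to 17.9) and early (25.3 to 46.4) libraries did not overlap, while those of the AT2 cells did.

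Both cyclooxygenase genes were at their highest in AT2 cells when each class was taken as a whole. Vwf-positive endothelial cells, a subdivision described below, held more Ptgs1 than AT2 cells did in the negative and early libraries, at 274 and 192 CPM. For Ptgs1, the constitutive form, endothelial cells came next in the negative and early libraries. AT2 cells held 102 CPM (98.3 to 106) early and 91.7 CPM (88.6 to 94.8) late, and the 46 AT2 cells of the negative library 171 CPM (131 to 220). Endothelial cells held 62.2, 50.3 and 25.2 CPM in the negative, early and late libraries. Fibroblasts ranged from 13.5 to 25.9 CPM, airway cells from 16.9 to 29.7, mural cells from 2.70 to 8.96, and mammary cells held 3.51 CPM from 13 UMIs. Of the Ptgs1 UMIs, 89.4% lay in endothelial cells in the negative library, and 84.9% and 94.9% lay in AT2 cells in the early and late libraries. Both the cell makeup and the level per class differed between the libraries.

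Ptgs2, the inducible form, was concentrated in AT2 cells, which held 93.5% of its UMIs in the early and 97.7% in the late library. Its level there was 77.2 CPM (74.0 to 80.5) early and 194 CPM (190 to 199) late. The 46 AT2 cells of the negative library held 160 CPM from 57 UMIs, of which 1 cell held 31.6%. In the other classes of at least 50 cells its level ran from 3.44 CPM (late mural) to 21.0 CPM (late airway). Endothelial cells differed little between libraries, at 8.97, 11.3 and 11.6 CPM with overlapping intervals. Barcodes of 1 to 100 UMIs, which hold free RNA, carried Ptgs2 at 11.1, 44.8 and 121 CPM in the negative, early and late libraries. The early and late libraries thus differed in free Ptgs2 RNA in the same direction as in AT2 cells, and its part in the low levels of other classes was not tested.

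Of the terminal synthases, Ptgis marked stromal and vascular cells and Ptges was spread thinly. Ptgis, the prostacyclin synthase gene (chromosome 2, 167191805 to 167240604, minus strand), was highest in fibroblasts, at 611 CPM (585 to 637) in the negative, 445 CPM (409 to 483) in the early library and 305 CPM (253 to 365) in the late one. Mural cells followed with 111, 62.5 and 31.7 CPM and endothelial cells with 51.5, 38.2 and 28.5 CPM. In each of these 3 classes the order of the libraries was the same, with the late one lowest. Of the fibroblast subdivisions described below, alveolar cells kept that order, at 707, 642 and 528 CPM. Adventitial cells did not, at 313, 352 and 208 CPM. The part of the makeup of the fibroblast class in its Ptgis levels was not tested. AT2 cells held 2.42 CPM early and 0.765 CPM late. Ptges, which encodes the inducible prostaglandin E synthase (chromosome 2, 30889471 to 30929863, minus strand), stood at 66.0, 40.03 and 20.7 CPM in fibroblasts and at 23.4, 21.8 and 32.7 CPM in mural cells. AT2 cells held 12.7 CPM of it early and 11.2 CPM late, and mammary cells 1 UMI. Ptgds, a prostaglandin D synthase gene (chromosome 2, 25466709 to 25470046, minus strand), was scarce: AT2 cells held 3.69 and 2.65 CPM, mammary cells 3.24 CPM from 12 UMIs, and mural and airway cells none.

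Hpgd, which encodes the dehydrogenase that inactivates prostaglandins, was an endothelial transcript in these lungs. Endothelial cells of the negative, early and late libraries held 2166, 2119 and 2624 CPM, which was 99.7%, 91.8% and 90.7% of all Hpgd UMIs in kept cells. A UMI of it was found in 91.6% to 94.2% of endothelial cells, and in 75.7% to 80.2% after each cell was thinned to 1000 UMIs. In mural cells, with median depths of 3180 to 3993 UMIs, the thinned share was 1.18% to 1.36%. Airway cells held 120 CPM early and 48.4 CPM late, and AT2 cells 30.5 and 14.98 CPM. The endothelial levels of the 3 libraries lay within a narrow range beside the gap to every other class.

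**Figure D1:**
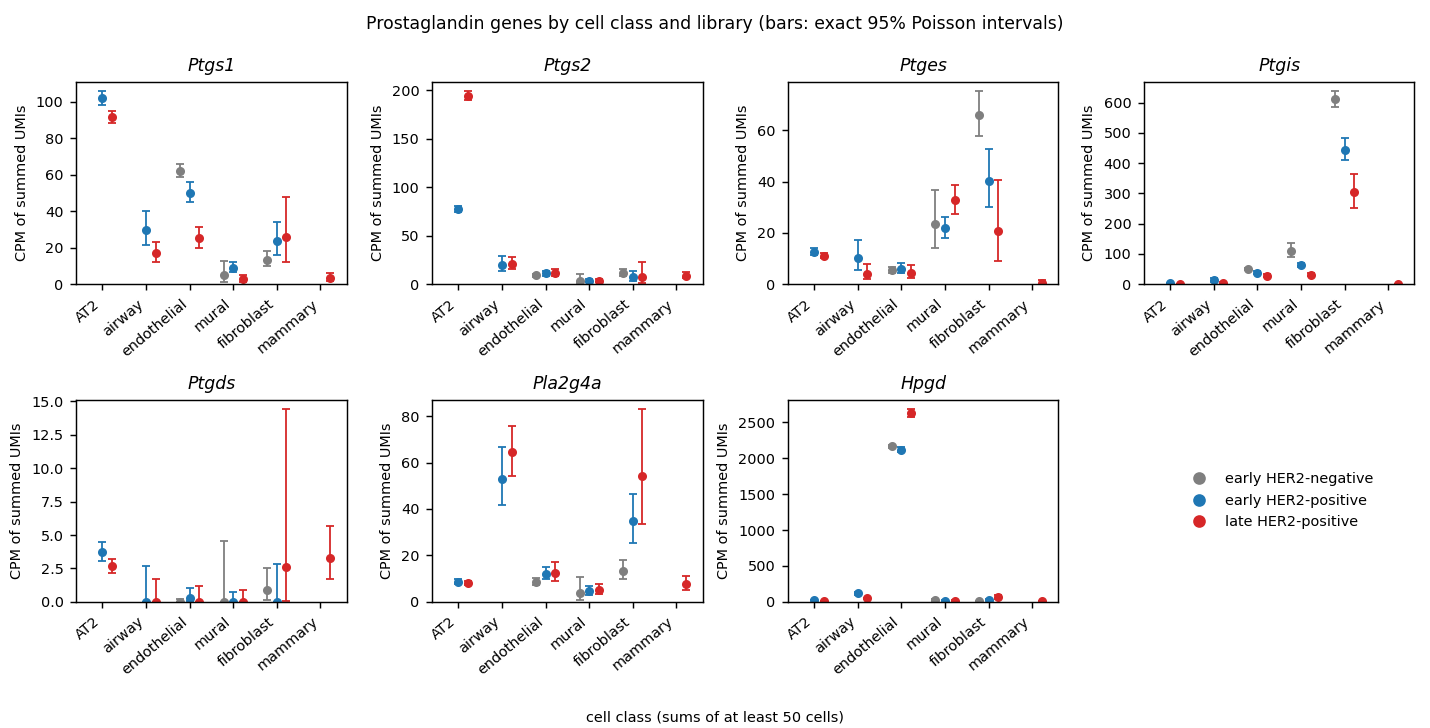
Level of each of the 7 genes (y axis, CPM of summed UMIs) by cell class (x axis) in the negative (grey, HER2- sort), early (blue, HER2+ sort) and late (red, HER2+ sort) libraries, for sums of at least 50 cells; bars are exact 95% Poisson intervals. Among the class sums shown, Ptgs1 and Ptgs2 peak in AT2 cells, Ptgis in fibroblasts and Hpgd in endothelial cells, where it reaches 2119 to 2624 CPM.

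Within the endothelium, a small set of cells with at least 2 UMIs of Vwf, the von Willebrand factor gene of larger vessels, stood apart from the unmarked remainder in 4 of the synthetic genes. These Vwf-positive cells, which met neither the arterial (Gja5 and Bmx) nor the aerocyte (Car4 and Ednrb) rule, numbered 459, 182 and 71 in the negative, early and late libraries, beside 4009, 974 and 246 other endothelial cells that met none of the 3 rules. Ptgs2 stood at 72.1, 69.3 and 37.1 CPM in Vwf-positive cells and at 1.13, 1.37 and 1.65 CPM in other cells. The ratios were 63.7 (36.6 to 120), 50.8 (20.5 to 162) and 22.5 (5.23 to 203), the last from 15 against 2 UMIs. The share of cells with a Ptgs2 UMI was 10.7%, 13.7% and 8.45% in Vwf-positive cells, against 0.125%, 0.411% and 0.813% in other endothelial cells.

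Pla2g4a followed the same division, at 69.2, 60.8 and 22.2 CPM against 1.21, 2.18 and 0.824 CPM, ratios of 57.1, 27.8 and 27.0. Ptgs1 was less restricted, at 274, 192 and 84.0 CPM against 43.1, 36.6 and 12.4 CPM, and its ratios were 6.35 (5.604 to 7.20), 5.25 (4.14 to 6.66) and 6.80 (3.604 to 13.4). Ptgis stood at 183, 117 and 42.0 CPM against 34.1, 26.2 and 22.2 CPM, ratios of 5.37 (4.63 to 6.23), 4.45 (3.32 to 5.97) and 1.89 (0.965 to 3.59). The last rested on 17 against 27 UMIs and its interval included 1. These 4 genes were called higher in Vwf-positive cells in all 3 libraries, where 12.4%, 12.1% and 10.8% of all genes were called higher. Hpgd did not share the division: 2837, 2431 and 2735 CPM in Vwf-positive cells stood beside 2228, 2302 and 2859 CPM in other cells. Of the 4 genes, Ptgs2 and Pla2g4a were not particular to Vwf-positive cells. Arterial cells were also called higher than other cells in all 3 libraries, beside 18.5%, 12.9% and 14.4% of all genes. The arterial ratios were 8.33, 10.9 and 10.9 for Ptgs2, from 6, 10 and 14 arterial UMIs, and 15.5, 10.9 and 37.3 for Pla2g4a. Leukocyte markers summed to 1, 1 and 0 UMIs and platelet markers to 1, 1 and 4 UMIs in the Vwf-positive cells of the 3 libraries. Mural markers summed to 16.6, 664 and 133 CPM there, and their part in these levels was not tested; the 4 genes' ratios without cells of more than 1 class kept the call. With class thresholds doubled, the log2 ratio of Ptgs2 was 2.33 early and 2.09 late, against 5.67 and 4.49 as given above.

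Ptges had another pattern within the endothelium. It was highest in aerocytes, the capillary cells marked by Car4 and Ednrb, at 28.2, 15.1 and 17.8 CPM, against 0.808, 3.82 and 0.824 CPM in other endothelial cells. The ratios were 34.8 (18.0 to 75.6), 3.94 (1.96 to 8.24) and 21.7 (3.15 to 932), beside 11.7%, 9.86% and 14.4% of all genes called higher. Vwf-positive cells held 1 to 3 Ptges UMIs per library, too few to place them: the ratio to other endothelial cells was 2.12 (0.376 to 8.25) in the negative and 0.318 (0.00752 to 2.09) in the early library. In thinned endothelial cells of the negative library, Ptgs1 and Ptgis were found together in 24 cells where independence would give 9.27, and Ptges and Ptgis together in 4 cells where it would give 0.625. Ptges and Ptgis were together in 0 early and 0 late cells, where it would give 0.131 and 0.0370. Cells of more than 1 class were kept in these counts, and their part was not tested.

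The Ptgs1 level of the Vwf-positive cells was lower in each library in turn, without overlap of the intervals: 250 to 300 CPM negative, 163 to 225 early and 58.2 to 117 late. Aerocytes did not follow that order, with 20.1, 13.2 and 34.1 CPM of Ptgs1. The subdivisions are set by fixed UMI counts, while median endothelial depth was 3034, 3790 and 5399 UMIs in the negative, early and late libraries. A deeper cell meets the cut of 2 Vwf UMIs at a lower Vwf level. The part of depth in the Ptgs1 levels was not tested. In the late library the Vwf-positive cells were not the highest in every synthetic gene: Ptgis was at 50.3 CPM in aerocytes and Pla2g4a at 30.7 CPM in arterial cells, with intervals that overlapped theirs. Without cells of more than 1 class, the late Ptgis level was 21.8 CPM (10.5 to 40.1) in aerocytes and 33.8 CPM (17.5 to 59.1) in Vwf-positive cells, so the order turned. Fibroblast markers summed to 360 CPM in all late aerocytes and to 19.8 CPM in Vwf-positive cells, and their part in the Ptgis level was not tested.

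**Figure D2:**
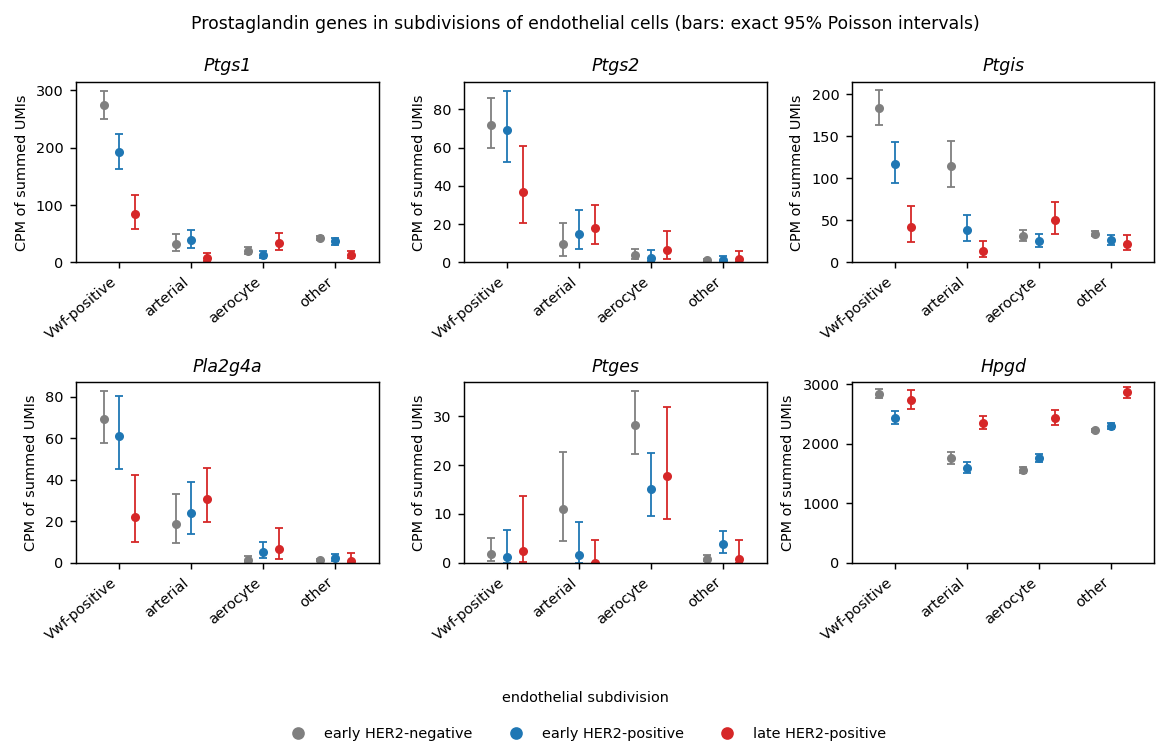
Level of 6 genes (y axis, CPM of summed UMIs) in 4 subdivisions of endothelial cells (x axis) in the negative (grey, HER2- sort), early (blue, HER2+ sort) and late (red, HER2+ sort) libraries; bars are exact 95% Poisson intervals. Ptgs1, Ptgs2, Ptgis and Pla2g4a are higher in Vwf-positive than in other endothelial cells in each library, Ptges is highest in aerocytes, and Hpgd exceeds 1500 CPM in all 4.

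Mural cells divided between prostacyclin and prostaglandin E synthase. Cells with at least 3 UMIs of the contractile genes Myh11 and Cnn1, called smooth muscle here by those markers alone, held 268, 103 and 73.3 CPM of Ptgis, against 29.8, 15.1 and 2.10 CPM in the remaining, pericyte-type cells. The ratios were 8.995 (5.19 to 16.5), 6.79 (4.74 to 10.0) and 34.9 (14.5 to 109), where 20.8%, 21.8% and 18.9% of all genes were called higher. Ptges was lower in smooth muscle, at 3.62, 8.64 and 14.8 CPM, than in pericyte-type cells, at 33.5, 37.4 and 45.4 CPM, and was called lower in all 3 libraries beside 26.0%, 19.1% and 19.9% of all genes.

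Fibroblasts split along a different line. Alveolar fibroblasts (Npnt and Ces1d) held 707, 642 and 528 CPM of Ptgis and adventitial fibroblasts (Pi16 and Col14a1) 313, 352 and 208 CPM, a call of higher in all 3 libraries beside 22.4%, 20.2% and 24.9% of all genes. Pla2g4a was lower in alveolar fibroblasts, at 4.95, 14.7 and 25.6 CPM against 44.3, 49.5 and 87.3 CPM, with 19.9%, 22.5% and 24.9% of genes called lower. The late ratio, 0.293 (0.0536 to 1.07), rested on 3 against 13 UMIs and its interval included 1. Ptges was called higher in alveolar than in adventitial fibroblasts in the negative and early libraries, beside the 22.4% and 20.2% of all genes. Its ratios were 3.82 (2.27 to 6.95) and 3.34 (1.64 to 7.35). The late library held 3 against 5 UMIs of Ptges, too few to place it. Ptgs2 was at 45.8 CPM from 32 UMIs in the 122 adventitial fibroblasts of the negative library and at 0 UMIs in its 522 alveolar fibroblasts, which allows up to 1.14 CPM. The 40 fibroblasts of that library that met neither rule held Ptgs2 at 43.4 CPM from 7 UMIs. In the early library Ptgs2 was at 10.99 CPM from 6 UMIs in adventitial and 2.10 CPM from 1 UMI in alveolar fibroblasts, with overlapping intervals. The late library's 21 adventitial and 23 alveolar fibroblasts were too few to place Ptgs2, with 2 and 0 UMIs.

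In the airway class, cells with at least 3 UMIs of the ciliated markers Foxj1 and Tppp3 held most of the Pla2g4a, at 84.9 CPM early and 104 CPM late against 10.2 and 13.5 CPM in the other, secretory-type cells. The ratios were 8.35 (3.64 to 23.6) and 7.72 (4.36 to 14.9), although 51.2% and 68.3% of all genes were called higher in ciliated cells. Ptgs1 was lower there, at 7.60 and 9.78 CPM against 59.3 and 26.0 CPM. Among cells of no class, 39, 138 and 71 met the rule for alveolar type 1 cells (Ager and Rtkn2), and their Ptgs1 level was 50.9, 53.6 and 51.2 CPM. Their Ptgs2 level was 0, 8.04 and 63.0 CPM, from 0, 6 and 32 UMIs, highest in the late library. Barcodes of free RNA held Ptgs2 at 11.1, 44.8 and 121 CPM in the same order. All cells of no class held AT2 markers at 203, 23021 and 15762 CPM. The part of free RNA or of AT2 transcripts in these Ptgs2 levels was not tested.

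Between the early and late libraries, Ptgs2 in AT2 cells was called lower early. Its early over late ratio was 0.397 (0.379 to 0.416), from 2236 against 7114 UMIs in 3939 and 3996 cells, which puts the late level 2.52-fold above the early one. Ptgs1 differed little in the same cells, with a ratio of 1.11 (1.06 to 1.17), as did Pla2g4a at 1.06 (0.895 to 1.26) and Ptges at 1.14 (0.987 to 1.32). Ptgds stood at 1.39 (1.05 to 1.85). Hpgd, at 2.04 (1.83 to 2.27), and Ptgis, at 3.16 (2.01 to 5.09), were higher early. Of the 7 members 3 were called, where 18.9% of 14230 genes were called in either direction, 15.3% higher and 3.66% lower. The median gene in AT2 cells had a log2 ratio of 0.10.

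The Hpgd and Ptgis differences went with cells that also met the markers of another class. AT2 cells with endothelial markers, 126 early and 39 late, held 768 of the 883 early and 435 of the 548 late Hpgd UMIs. In the 3272 early and 3411 late AT2 cells that met no other class, Hpgd was at 4.07 and 3.098 CPM and Ptgis at 0.403 and 0.267 CPM, while Ptgs2 was at 83.5 and 196 CPM and Ptgs1 at 105 and 94.1 CPM. Over all AT2 cells the 7 endothelial markers summed to 211 CPM early and 83.4 CPM late, the 7 mural markers to 491 and 84.0 CPM and the 7 fibroblast markers to 114 and 28.4 CPM. All 7 markers of each list had counts in both libraries. Without these cells the Ptgs2 ratio, at 0.427, kept its call, and the Hpgd ratio, at 1.31, did not. Ptgis, at 1.51 (0.517 to 4.50) from 9 against 8 UMIs, still met the call. Of all genes 12.5% were called among these cells, 8.09% higher and 4.41% lower.

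The higher late level of Ptgs2 was seen in the share of cells and in the number of UMIs per cell. A Ptgs2 UMI was found in 27.2% of early and 44.9% of late AT2 cells at median depths of 7138 and 8837 UMIs, and in 6.91% and 13.0% after thinning to 1000 UMIs. In mural cells, at 3180 and 3993 UMIs, the shares were 0.888% and 0.430%, or 0.0740% and 0.215% after thinning. Cells with 10 or more Ptgs2 UMIs numbered 13 early and 158 late, and the highest cell held 16 and 72 UMIs. The counts were unevenly held in both libraries: the 394 early and 400 late AT2 cells with the most Ptgs2 UMIs carried 66.2% and 60.4% of them.

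The late library was also the higher one on both sides of the rule's limit for AT2 cells. Cells with Sftpc at 5% to 10% of UMIs, just outside the class, held 35.1 CPM of Ptgs2 early and 135 CPM late, and those at 10% to 15%, just inside, 75.6 and 207 CPM.

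**Figure D3:**
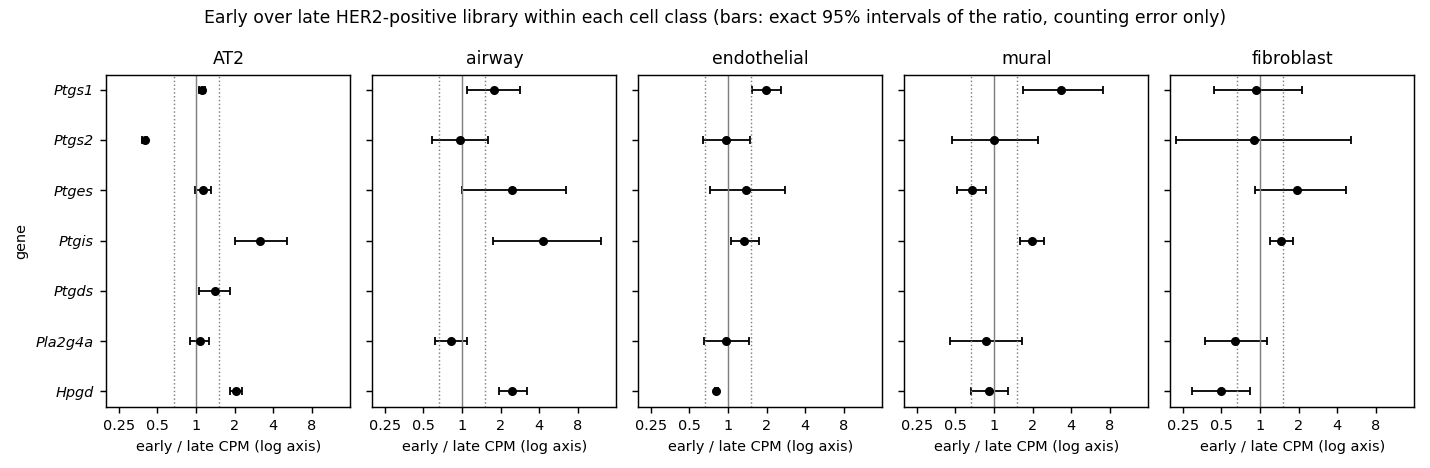
Ratio of early to late CPM (x axis, log scale) of each gene with at least 10 UMIs over the pair (y axis) in 5 cell classes; bars are exact 95% intervals for counting error and dotted lines mark 1.5-fold in each direction. In AT2 cells Ptgs2 lies at 0.397 while Ptgs1 lies at 1.11, and Hpgd lies at 2.04 in AT2 and 2.47 in airway cells but at 0.808 in endothelial cells.

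Ptgs2 is known as an immediate early gene, induced within a short time by many stimuli, so a fixed list of 17 immediate early genes was set beside it. In AT2 cells 9 of the 17 were called higher in the early library, among them Atf3 (74.2 against 26.8 CPM), Dusp1 (242 against 124 CPM) and Fos (395 against 262 CPM), and 1, Myc, was called lower (3.14 against 4.81 CPM), beside the 15.3% of all genes called higher and 3.66% called lower there. Between the libraries Ptgs2 thus ran opposite to those 9 genes, and the part of that list in the Ptgs2 ratio was not tested. Within each library its level was higher with more Fos: AT2 cells with 0, 1 and 2 or more Fos UMIs after thinning held 68.6, 95.7 and 111 CPM of Ptgs2 early and 188, 213 and 235 CPM late. The intervals of the upper 2 Fos groups overlapped in both libraries. At each Fos level the late library was above the early one, without overlap of the intervals.

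**Figure D4:**
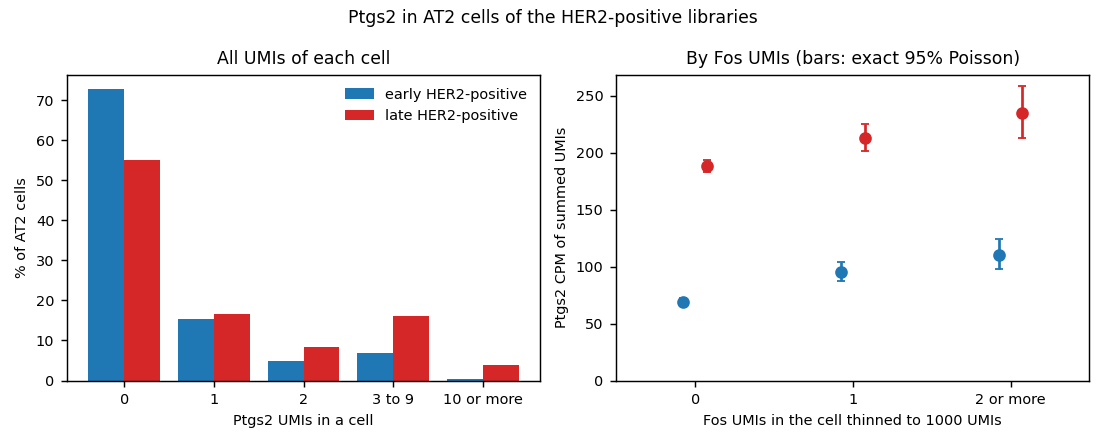
Left, share of AT2 cells (y axis, %) by the number of Ptgs2 UMIs in the cell (x axis) in the early (blue) and late (red) libraries; right, Ptgs2 level (y axis, CPM of summed UMIs, bars exact 95% Poisson intervals) by Fos UMIs in the thinned cell (x axis). The late library has more cells in every class above 0 UMIs and a higher level at each Fos count, 188 to 235 against 68.6 to 111 CPM.

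The AT2 cells that held a Ptgs2 UMI after thinning, 272 early and 520 late, were compared with the 3667 and 3476 that held none. Of 18 genes listed as responses to the transcription factor NF-kB, 16 were measured, and 7 were called higher and 2 lower in Ptgs2-positive cells early, against 11 higher and 1 lower late. Over all genes 7.43% were called higher and 9.72% lower early, and 6.45% and 7.98% late. The chemokine gene Cxcl1 was at 77.3 against 19.2 CPM early and 72.8 against 18.3 CPM late, ratios of 4.02 (3.35 to 4.81) and 3.97 (3.48 to 4.53). Nfkbia, which encodes the inhibitor of NF-kB, had ratios of 1.72 and 2.04, Nfkbiz 2.08 and 1.53, and Tnfaip3, a feedback inhibitor, 1.89 and 2.90. Cxcl2 had ratios of 6.61 and 2.63. These 5 genes were called higher in both libraries. Between the early and late AT2 cells as a whole, 17 of the 18 genes were measured. Of these, 2 were called higher and 3 lower early, beside 15.3% and 3.66% of all genes.

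Ccl20, another chemokine gene, was higher in the Ptgs2-positive cells early, at 18.4 against 1.86 CPM, but stood at 2 against 37 UMIs late, a ratio of 0.327 (0.0382 to 1.27). Of the 17 immediate early genes 2 early and 5 late were called higher in Ptgs2-positive cells. Ptgs1 was not called, with ratios of 0.884 and 0.909. Both cyclooxygenases were found together in 20 early and 42 late thinned AT2 cells, where independence would give 23.7 and 44.5.

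**Figure D5:**
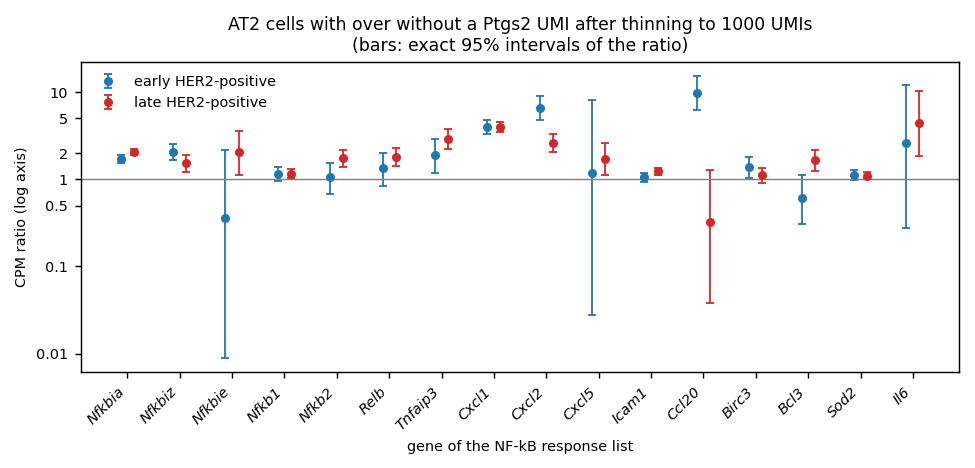
Ratio of CPM in AT2 cells with to those without a Ptgs2 UMI after thinning (y axis, log scale) for the genes of the NF-kB response list (x axis) in the early (blue) and late (red) libraries; bars are exact 95% intervals. Cxcl1 lies near 4 in both libraries, at 4.02 and 3.97, while Ccl20 lies at 9.88 early and 0.327 late.

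Of the vascular classes, both endothelial and mural cells held more Ptgs1 in the early than in the late library. Endothelial Ptgs1 was at 50.3 CPM early and 25.2 CPM late, a ratio of 1.99 (1.55 to 2.59), and was the 1 member called of 6 measured, beside 17.7% of all genes (11.9% higher, 5.81% lower). Endothelial Hpgd had a ratio of 0.808 (0.786 to 0.830), below the fold set for a call. Mural cells had 2 of 6 members called, Ptgs1 at 3.32 (1.69 to 7.12) and Ptgis at 1.97 (1.60 to 2.44), beside 19.3% of all genes (12.7% higher, 6.57% lower). When cells of more than 1 class were left out, 6 of 6 were called in mural cells, 5 higher and Ptges lower at 0.553 (0.381 to 0.8004), beside 14.7% of all genes higher and 7.05% lower. Of those 5, only Ptgs1 at 3.12 (1.03 to 12.7) and Ptgis at 2.06 (1.37 to 3.18) had intervals that left out 1, and Ptgs2 rested on 9 against 1 UMIs. In endothelial cells the same setting added Ptgis, at 1.73 (1.27 to 2.38), beside 17.9% of all genes. With all cells of the class, the immediate early list had 13 of 17 genes called higher early in mural cells and 4 of 17 in endothelial cells. Its part in the mural values was not tested.

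Airway cells had 4 of 6 members called higher early, beside 26.4% of all genes (20.5% higher, 5.93% lower): Ptgs1 at 1.76 (1.10 to 2.82), Hpgd at 2.47 (1.93 to 3.19), Ptges at 2.47 from 14 against 9 UMIs and Ptgis at 4.31 from 19 against 7 UMIs. Of the 19 early Ptgis UMIs, 63.2% lay in 1 cell, and under 10% mitochondrial UMIs the log2 ratio of Ptges turned to -0.036. The early airway cells held 863 CPM of mural markers against 60.3 CPM late. With cells of more than 1 class left out, Hpgd stood at 1.14 and lost the call, Ptgis had 0 UMIs in both libraries, and Ptgs1 and Ptges kept theirs beside 23.1% of all genes. Fibroblasts had 3 of 6 called, beside 31.6% of all genes (16.5% higher, 15.1% lower), with Ptges at 1.94 (0.913 to 4.72) higher early and Pla2g4a at 0.638 (0.372 to 1.13) and Hpgd at 0.492 (0.296 to 0.835) lower. Of the 26 late fibroblast Hpgd UMIs, 1 cell held 38.5%.

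Between the early and negative libraries, which differ in the sort, endothelial levels of the members were close. Of 6 measured, 0 were called, beside 20.0% of 13078 genes (13.0% higher, 6.96% lower), and the early over negative ratios were 0.979 (0.960 to 0.998) for Hpgd, 0.807 (0.713 to 0.913) for Ptgs1, 0.743 (0.644 to 0.854) for Ptgis and 1.41 (1.06 to 1.85) for Pla2g4a. Ptgs2 at 1.26 (0.942 to 1.66) and Ptges at 1.07 (0.721 to 1.56) had intervals that included 1. Without cells of more than 1 class, 2 were called, Ptgs2 at 1.56 and Pla2g4a at 1.54, beside 17.2% of all genes. In mural cells 3 of 6 were called, beside 25.7% of genes (14.1% higher, 11.6% lower): Ptgis at 0.565 (0.445 to 0.722), Hpgd at 0.617 (0.381 to 1.04) and Ptgs1 at 1.82 from 44 against 4 UMIs. Without cells of more than 1 class only that of Ptgis was left, beside 32.7% of all genes.

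In fibroblasts 5 of 6 members were called between these sorts, beside 31.2% of genes (18.4% higher, 12.7% lower). Pla2g4a at 2.57 (1.67 to 3.95), Hpgd at 2.51 (1.62 to 3.89) and Ptgs1 at 1.77 (1.09 to 2.84) were higher in the early library, and Ptges at 0.607 (0.440 to 0.823) and Ptgs2 at 0.619 (0.264 to 1.30) were lower. The makeup of the class differed too: 522 of 684 negative-library but 105 of 268 early-library fibroblasts were alveolar by the rule. That subdivision held less Pla2g4a and more Ptges than adventitial fibroblasts, and the part of the makeup in the ratios was not tested. Within adventitial fibroblasts Pla2g4a was at 44.3 and 49.5 CPM in the negative and early libraries, with overlapping intervals. Ptges was at 81.9 and 67.3 CPM in alveolar and at 21.4 and 20.2 CPM in adventitial fibroblasts of the same libraries. Its intervals also overlapped within each subdivision.

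The 161 mammary cells of the late library held less of both cyclooxygenases and of Ptges than AT2 cells did. Relative to AT2 cells of the same library, Ptgs1 had a ratio of 0.0383 (0.0204 to 0.0657), Ptgs2 of 0.0459 (0.0316 to 0.0645) and Ptges, with 1 UMI, of 0.0242 (0.000612 to 0.136). Pla2g4a, at 0.933 (0.609 to 1.38), and Ptgds, at 1.22 (0.611 to 2.24), were not called. Hpgd stood at 0.560 (0.377 to 0.804), but 80.6% of its 31 mammary UMIs lay in 1 cell. Of 33 mammary Ptgs2 UMIs, 54.5% lay in 1 cell. Of the 7 members 4 were called lower, where 21.0% of all genes were lower, 46.5% higher and 67.5% called in either direction. The median gene had a log2 ratio of 0.48, and median depth was 22179 UMIs in mammary and 8837 in AT2 cells. Cells just outside the mammary rule, with Csn3 and Wfdc18 at 0.5% to 1% of UMIs, numbered 14 and held 54.7 CPM of Ptgs2, and the 23 cells at 1% to 2% held 38.6 CPM.

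Transport and breakdown genes of a wider list of 43 pathway genes followed Hpgd in part. Slco2a1, the prostaglandin transporter gene, was at 1126, 932 and 857 CPM in endothelial cells, next highest in mammary cells at 213 CPM, and at 84.8 and 80.5 CPM in AT2 cells of the early and late libraries. Within the negative endothelium it was at 1218 CPM in other cells and 853 CPM in Vwf-positive cells. Ptgr1, which acts after Hpgd, was instead highest in airway cells, at 54.4 and 39.3 CPM, and in AT2 cells, at 38.7 and 35.7 CPM, against 1.60 to 3.98 CPM in endothelial cells.

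Among phospholipases, Pla2g1b, a secreted form, was at 297 and 309 CPM in AT2 cells and at or below 27.6 CPM in every other named class. Pla2g7, which encodes platelet-activating factor acetylhydrolase, was at 105, 56.6 and 74.7 CPM in mural cells, and at 2.17, 20.2 and 31.8 CPM in endothelial cells of the negative, early and late libraries. The synthase genes Ptges3 and Akr1b3 were spread over all classes, Ptges3 at 106 to 402 CPM. The thromboxane synthase gene Tbxas1 did not exceed 1.99 CPM in any named class.

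The receptor genes were mostly at their highest in stromal cells. Ptgfr, the prostaglandin F receptor gene, was at 64.6, 65.4 and 62.1 CPM in fibroblasts, and Ptger2, an E receptor gene, at 24.1, 17.7 and 25.9 CPM. A second E receptor gene, Ptger4, was at 7.17, 26.9 and 36.2 CPM in fibroblasts. Ptgir, the prostacyclin receptor gene, was at 12.3, 20.0 and 14.5 CPM in mural cells, beside the Ptgis of the smooth muscle cells. Tbxa2r, the thromboxane receptor gene, was at 54.4, 48.5 and 50.2 CPM in smooth muscle and at 59.2 CPM in aerocytes of the negative library, against 27.0 and 16.2 CPM in the other two.

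Of the 43 wider list genes, 29 were measured between the early and late AT2 cells, and 7 were called higher and 1 lower early, beside 15.3% and 3.66% of all genes. The 7 rested on few UMIs, with receptors such as Tbxa2r at 39 against 7 and Ptgfr at 20 against 0. In early AT2 cells that met no other class, Tbxa2r, Ptgir, Ptgfr and Ptger2 held 3, 0, 6 and 1 UMIs. The others of the 7 were not split by the markers of other classes. In mural cells 5 of 27 were higher and 2 lower, beside 12.7% and 6.57% of all genes. Endothelial cells had 4 of 27 higher and 2 lower, beside 11.9% and 5.81%. Airway cells had 6 of 21 and 2, beside 20.5% and 5.93%, and fibroblasts 3 of 22 and 5, beside 16.5% and 15.1%. Between the early and negative libraries the counts were 7 of 27 higher and 2 lower in endothelial cells (13.0% and 6.96% of all genes), 6 of 25 and 5 in mural cells (14.1% and 11.6%) and 6 of 26 and 4 in fibroblasts (18.4% and 12.7%). Mammary cells against AT2 cells had 7 of 22 higher and 7 lower, beside 46.5% and 21.0% of all genes. The share of the list called higher was below that of all genes in fibroblasts, early against late, and in mammary cells. The higher ones included Slco2a1 at 2.65, Pla2g16 at 5.01, Pla2g12a at 5.61 and Fam213b at 5.99, and Alox15, a lipoxygenase gene, with 40 against 2 UMIs.

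The genes whose levels were most like those of each member over the 14 library and class sums of at least 50 cells were ranked by Pearson's r of log2(CPM + 1), as a description over sums that share libraries. For Ptgs1 these were Slc22a23 (0.970), Stard3nl (0.891) and Tdrd3 (0.879), and for Ptgs2 Npc2 (0.936), Snx25 (0.930) and Plbd1 (0.907). Hpgd was nearest to Arhgef15 (0.988), Ctla2b (0.988) and Ccdc85a (0.986), and Ptgis to C1rb (0.979), Pcolce2 (0.977) and Ptprd (0.976). Ptges was nearest to Spry1 (0.983), Tbc1d2b (0.972) and Scarf2 (0.959), Pla2g4a to Dapl1 (0.919), Gfra1 (0.914) and Ftl1 (0.913), and Ptgds to Cyp51 (0.914), Mvd (0.909) and Glrx (0.874). The search covered 9746 genes.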

How the data were processed

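The deposited values are raw UMI counts of genes by barcodes (10x Chromium 3′ version 3). Per the file headers the software version was 3.1.0, and the submitters' processing notes name the build mm10. Which aligner and annotation were used is not given in the sources used here. Each unfiltered matrix lists 6794880 barcodes. Kept cells held 23039097, 44541222 and 51075059 UMIs in the negative, early and late libraries. Cells were classed by the markers in the text (at least 1% of UMIs for mammary, 10% for AT2, 3 UMIs for airway, 2 for the other classes, first match), counts were summed per library and class, and CPM, exact Poisson intervals and exact conditional intervals of ratios were computed with Python 3.11.15, numpy 2.4.6 and scipy 1.17.1. No test between groups was run, since each group is 1 library. A level of 0 allows 3 counts. No doublet caller was run: cells meeting more than 1 class were left out as an alternative. Shares are also given after thinning each cell to 1000 UMIs. Named genes are the members, the wider list and, for each member, the 3 genes of highest Pearson r among those with at least 10 UMIs and 20 CPM in a sum. The members and all lists were chosen with earlier results of these data known. The calling rule was also run on simulated counts with known ratios. No result of that run is given here, so it says nothing about how reliable the calls are, least of all those on few UMIs. Gene positions are from GENCODE on GRCm38. Of the genes overlapping a member, Gm14291, antisense to Ptgis, was counted, with 1, 0 and 0 UMIs. Alternatives were the UMI minimum, the mitochondrial limit, class thresholds, background removal, equal weight per cell, leaving out the top cell, and TMM scaling (edgeR 4.0.16 in R 4.3.3). Intervals cover counting error only.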

Additional observations from a re-analysis of the deposited data

Results flagged for a closer look

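Hpgd differed in direction between cell classes in the early over late ratio. It was 2.04 in AT2 cells and 2.47 in airway cells but 0.492 in fibroblasts, where the late level rested on 26 UMIs in 71 cells. Without cells of more than 1 class, the ratio was 1.31 in AT2 and 1.14 in airway cells, both below the fold of a call, and stayed at 0.492 in fibroblasts. The difference between the classes was not tested.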

How the results depend on the processing

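With 1 library per group, leaving out a replicate could not be done, so replicate error was not measured. Depth limits the ratios that rest on few UMIs, whose intervals are wide. No paired analysis was possible because each group holds 1 sample. Of 25 member calls over the 9 comparisons, 25 were kept at a UMI minimum of 500, at 2000, with background taken off and with TMM scaling, 23 under 10% mitochondrial UMIs, 23 without the top cell, 21 with equal weight per cell, 21 at double class thresholds and 20 of 24 without cells of more than 1 class. The Ptgs2 ratio in AT2 cells ranged from 0.368 (TMM) to 0.523 (cells of 5000 to 10000 UMIs, an alternative chosen after seeing the data), and all its settings kept the call. Airway Ptges, early over late, turned to a log2 ratio of -0.036 under 10% mitochondrial UMIs, and mammary over AT2 Hpgd to 1.45 at double thresholds; the cause was not tested. Hpgd in AT2 cells lost its call without cells of more than 1 class (1.31) and at double thresholds (1.49).

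Counts of members called moved as follows. Without cells of more than 1 class the early over late count became 6 in mural, 2 in endothelial and 2 in airway cells, and the early over negative count 2 in endothelial and 1 in mural cells. Background removal and leaving out the top cell each gave 4 in mural cells, and the latter 2 in endothelial cells. Equal weight gave 2 in endothelial cells in both comparisons. Double thresholds gave 1 for early endothelial cells and 5 for fibroblasts early over late. The shares of all genes called without cells of more than 1 class are given above. Under background removal, without the top cell, with equal weight and at double thresholds that share was not counted. The counts under those settings therefore cannot be read as a result about the members.

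For the subdivisions, examined under settings chosen after seeing the data, 66 of 66 calls were kept at a minimum of 500 UMIs, 65 of 66 at 2000, 62 of 64 under 10% mitochondrial UMIs, 48 of 52 without cells of more than 1 class, 62 of 65 at double thresholds and 54 of 55 without the top cell. In 4 cases the direction turned, at log2 ratios of -0.34 for Ptges in Vwf-positive over other endothelium (negative library, without the top cell), 0.043 for Hpgd and 0.065 for Ptgs2 in ciliated over secretory cells (early library, under 10% mitochondrial UMIs and without cells of more than 1 class) and -0.49 for Ptgs2 in smooth muscle over pericyte-type cells (late, double thresholds); the cause was not tested.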
